A study of Homo sapiens with 12 samples.

Results

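The 26S proteasome is the protease that degrades most ubiquitin-marked proteins of the cell. Its core is a barrel of stacked rings, with outer rings of alpha subunits (PSMA genes) that gate entry and inner rings of beta subunits (PSMB genes) that hold the catalytic sites. A regulatory particle caps the barrel. Its base carries ATPases (PSMC genes) that unfold substrates, and its non-ATPase subunits (PSMD genes) bind and remove ubiquitin. Activators (PSME genes) can cap the core in its place, PSMF1 is an inhibitor of the core, and PSMG genes encode chaperones that assemble the rings. In colon epithelium beta-catenin, the product of CTNNB1, is marked by a complex that contains APC, is ubiquitinated and is then degraded by the proteasome.

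Transcript levels of the proteasome genes were examined in 12 RNA-seq libraries of HT-29, a long-established line of human colon adenocarcinoma whose labelled genotype is APC mutant. The genes were those of the deposited table whose symbol is PSM, a letter from A to G and a number, 48 of 25528. They comprised 19 core genes (PSMA and PSMB), 20 regulatory genes (PSMC and PSMD) and 9 activator or assembly genes (PSME, PSMF and PSMG). Cells of the GFP and CTNNB1 groups were infected with lentivirus that carried the respective open reading frame and were collected after 2 days, without doxycycline in the labels. Cells of the shNT1 and shAPC groups were infected with lentivirus that encoded a hairpin, either shNT1 as the control or shAPC, which targets APC, and were harvested at day 1 of doxycycline (2 µM). Each group had 3 libraries, and all 4 groups share the APC-mutant background. The labels give no separate cultures for the replicates, so p-values measure the spread between these libraries, which may be technical. GFP and CTNNB1 form the CTNNB1 arm, and shNT1 and shAPC form the shAPC arm.

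Values are TPM, transcript abundances that are scaled to transcript length and to a fixed total, so levels can be set beside each other between genes while the depth of a library is unknown. Within groups the Pearson correlation of log2(TPM + 1) was between 0.9912 and 0.9974, and 14756 to 16186 genes per library were above 0 TPM. Mean APC was 5.99 ± 0.56 TPM with shAPC against 16.4 ± 0.80 TPM with shNT1, and mean CTNNB1 was 160.1 ± 4.2 TPM with the CTNNB1 frame against 146 ± 2.9 TPM with GFP (SD, n = 3 each). APC was called lower (-1.32 on the log2 scale), and CTNNB1 was not called higher (0.13, limma adjusted p = 0.059). Of 11 markers of colon epithelium, 9 had a mean of at least 1 TPM (CDX1 and CDX2 did not). Markers of fibroblasts and endothelium summed to at most 0.695 and 0.478 TPM. Of 5 leukocyte markers, CD3E was listed at 0 in all libraries and PTPRC reached 0.0217 TPM at most, CD14 averaged 2.45 TPM (1.63 to 3.15), and LYZ, which intestinal epithelium also expresses, averaged 7054 TPM. In bulk RNA, fewer cells of a type and less RNA per cell cannot be told apart.

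Of the 48 genes, 44 had a mean of at least 1 TPM and were tested. PSMA8, an alpha subunit of the testis, and PSMB11, a beta subunit of the thymus, were listed at 0 TPM in all 12 libraries. PSMB8 and PSMB9, the interferon-inducible catalytic subunits, were below the limit. Of the others, PSMA1 to PSMA7, PSMB1 to PSMB7, PSMC1 to PSMC6 and the PSMD genes apart from PSMD5, PSMD9 and PSMD10 make a group of 31. They are called the 31 constitutive subunits of the 26S particle below, a grouping chosen after their levels had been seen. The particle also holds SEM1 and ADRM1, whose symbols do not begin with PSM. These 2 are outside the 31 and are given with the pathway lists. PSMD5, PSMD9 and PSMD10 are chaperones that assemble the base of the regulatory particle and are absent from the finished particle.

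Subunits that take part in 1 ring did not have equal transcript levels. Among the alpha subunits in GFP, PSMA7 had the highest mean (1499 ± 31 TPM) and PSMA5 the lowest (149.8 ± 4.6 TPM), a ratio of 10.0, and the ratio was between 8.86 and 9.84 in the other groups. Among the 7 constitutive beta subunits the highest mean was 4.65 times the lowest in GFP and between 4.29 and 4.51 times in the other groups. The base ATPases lay closest together, with a ratio of 2.02 in GFP and between 2.14 and 2.17 elsewhere. The order of the 31 subunits by mean TPM was nearly the same in GFP and CTNNB1 (Spearman rho 0.985 across genes, which are not independent replicates).

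All 48 genes together took between 1.38% and 1.42% of the TPM in the GFP libraries, between 1.01% and 1.05% in the CTNNB1 libraries, between 0.938% and 0.966% in shNT1 and between 0.909% and 0.932% in shAPC. Summed TPM of the core genes was 7785, 7525 and 7489 in GFP, 5225, 5413 and 5532 in CTNNB1, 5109, 4931 and 4932 in shNT1, and 4762, 4949.5 and 5038 in shAPC. The GFP libraries stood above the other 9, and the change of the core mean from GFP to CTNNB1 was -29.1%. Regulatory genes summed to 5286, 5160.5 and 5241 TPM in GFP, 3777, 3617 and 3776 TPM in CTNNB1, 3430.3, 3348 and 3536 TPM in shNT1, and 3260.3, 3159 and 3168 TPM in shAPC. Again GFP stood above the rest, with a change of the mean by -28.8% from GFP to CTNNB1, and by -7.04% from shNT1 to shAPC (a ratio of 0.930, which was 0.958 under median-ratio scaling). Activator and assembly genes summed to 1132, 1125 and 1099.6 TPM in GFP, 1137, 1153 and 1182 TPM in CTNNB1, 1119, 1099.6 and 1108 TPM in shNT1, and 1066, 1078 and 1116 TPM in shAPC. For this class the CTNNB1 mean was 3.42% above the GFP mean, and under median-ratio scaling it was below it (ratio 0.983). The sums are descriptions and carry no test.

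**Figure D1:**
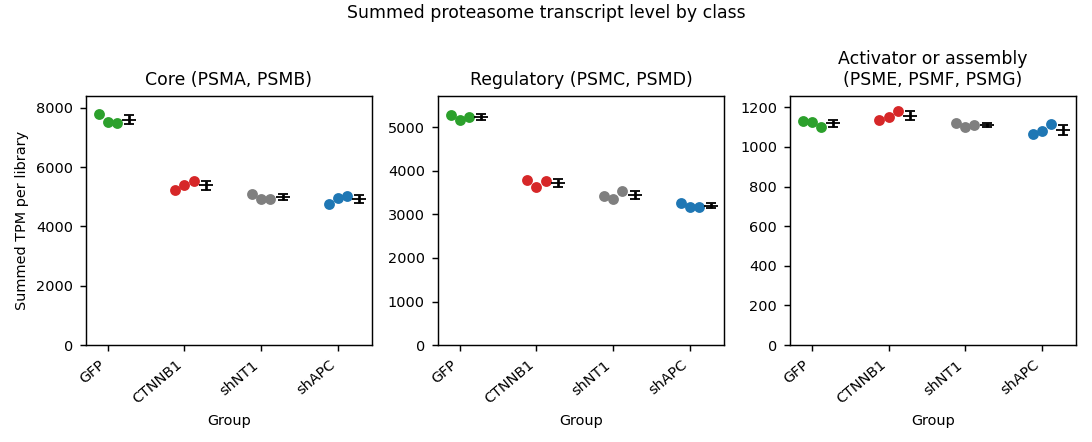
Summed TPM (vertical axis, from 0) of the core, regulatory and activator or assembly genes in the 4 groups (horizontal axis). Points are the 3 libraries of a group and bars the mean ± SD; for core and regulatory genes the GFP libraries lie above the other 9, and for activator or assembly genes all 12 libraries lie between 1066 and 1182 TPM.

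Genes of the core and of the regulatory particle were lower in the CTNNB1 group than in GFP. With limma on log2(TPM + 1) and a threshold of 0.05 on the Benjamini-Hochberg adjusted p over 11624 genes, 32 of the 44 tested proteasome genes fell, 2 rose and 10 were not called. Of all genes tested in this arm, 7.16% (832) were called lower and 16.3% (1898) higher, and under median-ratio scaling 1461 were lower and 1254 higher, with 32 proteasome genes lower and 0 higher. The median log2 fold change was -0.45 over the 44 genes and 0.06 over all genes tested. Among the 1651 tested genes with a mean of at least 100 TPM, the range of most of the subunits, 13.6% were called lower. CTNNB1 and GFP libraries did not overlap for 33 of the 44 genes in the lower direction and 2 in the higher one, against 13.0% and 30.2% of all genes.

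All 31 constitutive subunits fell, with log2 fold changes between -0.76 and -0.29 and a median of -0.50. Of these 31 calls, 30 held under every alternative tried at the same threshold, and the exception was PSMD12. Mean TPM in CTNNB1 was between 0.587 (PSMC4) and 0.818 (PSMD12) of that in GFP. The 3 base chaperones of the PSMD series, the inducible subunit PSMB10 and 6 of the 9 activator or assembly genes were not called. The plot of levels by library shows these genes as rows without the step down from GFP to CTNNB1 of the constitutive subunits.

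**Figure D2:**
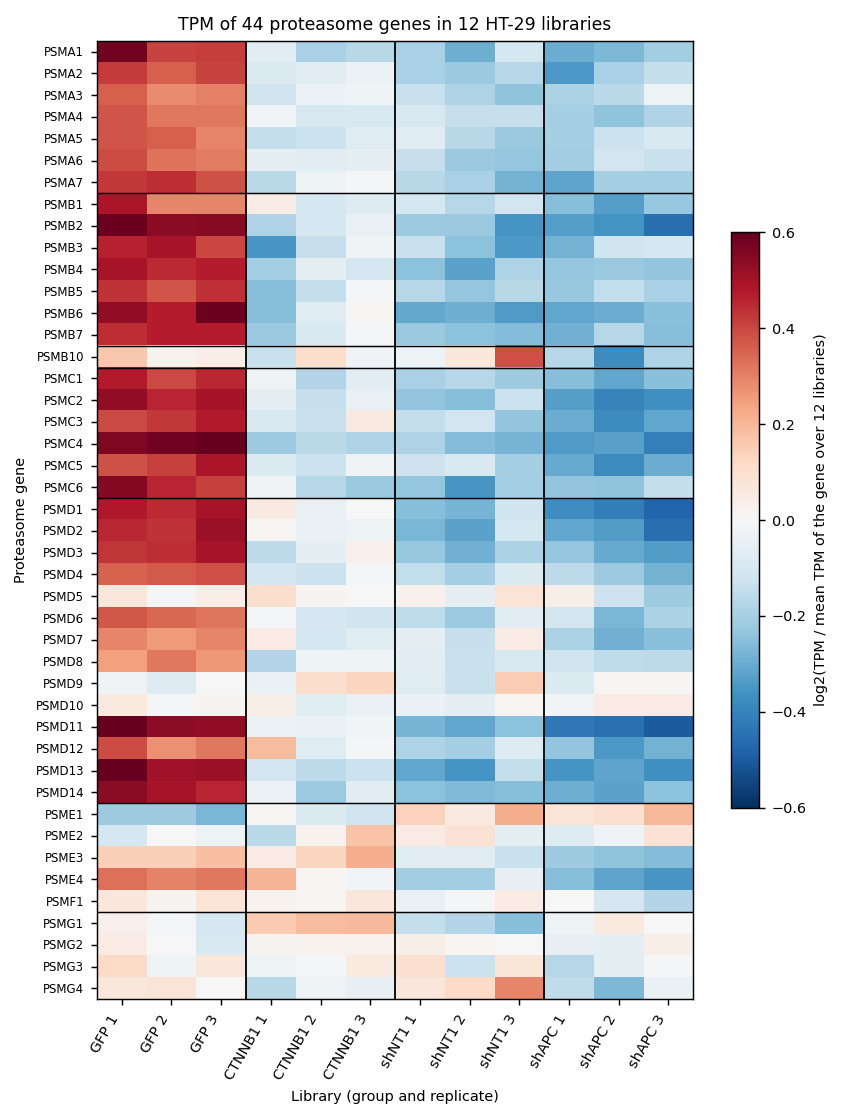
Level of the 44 tested genes (rows) in the 12 libraries (columns), as log2 of TPM over the gene's mean TPM across the 12 libraries. Horizontal lines part the alpha, constitutive beta, inducible beta, ATPase, non-ATPase, activator and assembly genes; the 31 constitutive subunits are highest in the 3 GFP libraries, while PSMD5, PSMD9, PSMD10 and most PSME and PSMG rows show no such step.

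All 7 tested alpha subunits were called lower, between -0.61 and -0.38. PSMA1 had the largest change of the ring. It was measured at 538, 477 and 480.2 TPM in GFP, 343, 315 and 321 TPM in CTNNB1, 315, 294 and 335 TPM in shNT1, and 293, 299 and 312 TPM in shAPC. The 3 GFP libraries lay above the other 9, and the shNT1 and shAPC libraries overlapped. Limma gave a log2 fold change of -0.61 (SE 0.06, adjusted p = 8.9e-05). PSMA7, the most abundant subunit of the ring, stood at 1506, 1526 and 1465 TPM in GFP, 1004, 1098 and 1119 TPM in CTNNB1, 1001, 983 and 923 TPM in shNT1, and 902, 979.6 and 974 TPM in shAPC. Its GFP libraries again did not overlap the others, and limma gave a log2 fold change of -0.48 (SE 0.05, adjusted p = 0.00013). PSMA2, PSMA3, PSMA4, PSMA5 and PSMA6 changed by -0.45, -0.38, -0.41, -0.45 and -0.40.

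The 7 constitutive beta subunits were all called lower, between -0.67 and -0.40. PSMB2, a beta subunit without a catalytic site, had the largest change of this ring. Its levels were 194, 187 and 188 TPM in GFP, 113, 119.5 and 125 TPM in CTNNB1, 111, 110.4 and 101 TPM in shNT1, and 102, 100.3 and 93.99 TPM in shAPC. The GFP libraries lay above all others, and limma gave a log2 fold change of -0.67 (SE 0.05, adjusted p = 2.6e-05). PSMB3, also non-catalytic, had the widest spread of the ring within CTNNB1. It was found at 584, 597 and 561 TPM in GFP, 333, 385 and 418 TPM in CTNNB1, 387, 358 and 334 TPM in shNT1, and 348, 390.2 and 395 TPM in shAPC. Every CTNNB1 library lay below every GFP library while CTNNB1 overlapped both hairpin groups, and limma gave a log2 fold change of -0.62 (SE 0.07, adjusted p = 0.00033). PSMB1 and PSMB4 changed by -0.40 and -0.59. The authors' deposited tables pair PSMB1 and PSMB3 with Ensembl identifiers that GENCODE v29 gives to no gene of its primary assembly, and their TPM were taken as deposited.

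Catalysis rests on PSMB6 (caspase-like), PSMB7 (trypsin-like) and PSMB5 (chymotrypsin-like), and all 3 fell in CTNNB1. PSMB6 was measured at 301, 289 and 313 TPM in GFP, 174, 198 and 209 TPM in CTNNB1, 169, 170.2 and 164 TPM in shNT1, and 168, 169.8 and 175 TPM in shAPC. GFP stood apart from the other groups, and limma gave a log2 fold change of -0.63 (SE 0.07, adjusted p = 0.00018). PSMB7 was present at 556, 567 and 567 TPM in GFP, 351, 384 and 406 TPM in CTNNB1, 351, 344 and 341 TPM in shNT1, and 335, 363 and 342 TPM in shAPC. CTNNB1 libraries again lay below GFP, and limma gave a log2 fold change of -0.57 (SE 0.05, adjusted p = 9.9e-05). PSMB5 was the least abundant of the catalytic genes, at 153, 147 and 154 TPM in GFP, 95.02, 103 and 113 TPM in CTNNB1, 101, 96.6 and 101 TPM in shNT1, and 96.9, 102 and 99.3 TPM in shAPC. Limma gave a log2 fold change of -0.55 (SE 0.06, adjusted p = 0.00029).

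After interferon exposure PSMB9, PSMB10 and PSMB8 take the places of PSMB6, PSMB7 and PSMB5 and form the immunoproteasome, which makes peptides for antigen presentation. PSMB8 was listed at 0.121, 0.0441 and 0.0878 TPM in GFP, 0.178, 0.243 and 0.166 TPM in CTNNB1, 0.330, 0.323 and 0.227 TPM in shNT1, and 0.277, 0.377 and 0.555 TPM in shAPC. It was between 0.0300% and 0.558% of the level of PSMB5 in the same library. PSMB9 was listed at 0.00988, 0 and 0.0188 TPM in GFP, 0.0105, 0.0530 and 0.0317 TPM in CTNNB1, 0.0270, 0.0533 and 0.168 TPM in shNT1, and 0.00819, 0.0405 and 0.0512 TPM in shAPC. Neither reached a mean of 1 TPM, so no fold change is given, although the 3 GFP values of PSMB8 were the lowest of the 12. PSMB10 was expressed, at 34.2, 31.1 and 31.6 TPM in GFP, 27.9, 32.96 and 30.2 TPM in CTNNB1, 30.01, 32.01 and 40.1 TPM in shNT1, and 27.2, 23.6 and 26.99 TPM in shAPC. It was between 5.49% and 11.8% of the level of PSMB7. GFP and CTNNB1 overlapped for PSMB10, and limma gave a log2 fold change of -0.09 (SE 0.07, adjusted p = 0.40).

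**Figure D3:**
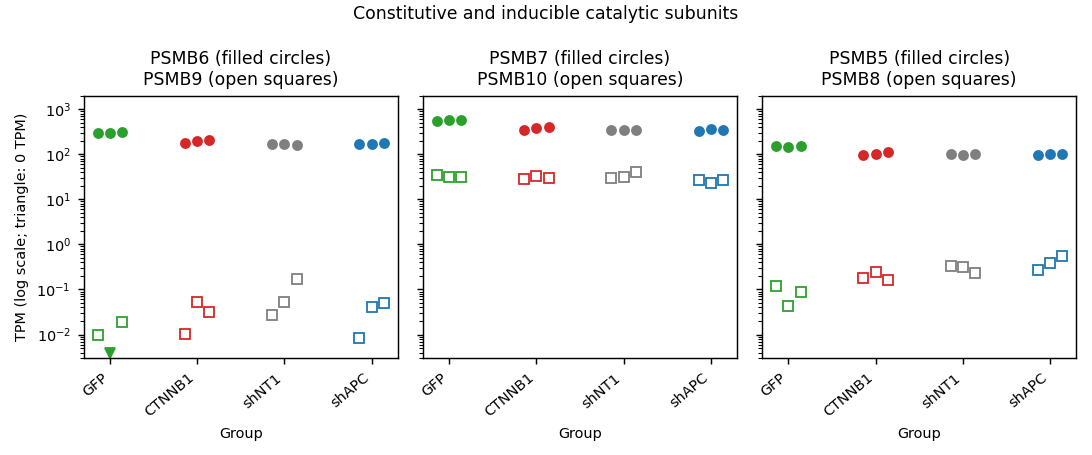
TPM (vertical axis, log scale) of each constitutive catalytic subunit (filled circles) and its inducible counterpart (open squares) in the 3 libraries of each group (horizontal axis); a triangle marks 0 TPM. The constitutive genes are highest in GFP, PSMB8 and PSMB9 lie below 1 TPM in all libraries, and PSMB10 lies between 23.6 and 40.1 TPM.

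All 6 base ATPases were called lower in CTNNB1, between -0.76 and -0.49. PSMC4 had the largest change of any proteasome gene. Its levels were 258, 261 and 265 TPM in GFP, 150.2, 156 and 154 TPM in CTNNB1, 154, 146 and 144 TPM in shNT1, and 138, 139.5 and 131 TPM in shAPC. The lowest GFP library was above the highest of the other 9, and the CTNNB1 and shNT1 libraries overlapped. Limma gave a log2 fold change of -0.76 (SE 0.04, adjusted p = 4.2e-06). PSMC6 was measured at 256, 240.0 and 232 TPM in GFP, 172, 155 and 149.6 TPM in CTNNB1, 149, 137 and 151 TPM in shNT1, and 148, 148 and 158 TPM in shAPC. GFP stood above the rest, and limma gave a log2 fold change of -0.61 (SE 0.06, adjusted p = 0.00013). PSMC1, PSMC2, PSMC3 and PSMC5 changed by -0.53, -0.57, -0.49 and -0.50.

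Of the 14 non-ATPase genes, 11 were called lower, between -0.69 and -0.29, and these 11 are the genes that encode subunits of the finished particle. PSMD13, a subunit of the lid, was found at 532, 481 and 484 TPM in GFP, 313, 304 and 310.4 TPM in CTNNB1, 273, 266 and 307 TPM in shNT1, and 266, 272 and 263 TPM in shAPC. Its CTNNB1 libraries lay between 304 and 313 TPM, below the lowest GFP library at 481 TPM, and limma gave a log2 fold change of -0.69 (SE 0.05, adjusted p = 2.3e-05). PSMD14, the deubiquitinase that removes ubiquitin chains from substrates, was measured at 428, 414 and 403 TPM in GFP, 287, 252 and 280.5 TPM in CTNNB1, 248, 244 and 246 TPM in shNT1, and 240.0, 235 and 247 TPM in shAPC. GFP libraries were the 3 highest of the 12, and limma gave a log2 fold change of -0.60 (SE 0.05, adjusted p = 7.5e-05). The ubiquitin receptor PSMD4 changed by -0.45, and PSMD1 and PSMD2, the large scaffold subunits of the base, by -0.47 and -0.49. The lid subunits PSMD3, PSMD6, PSMD8 and PSMD11 changed by -0.51, -0.42, -0.35 and -0.58, PSMD7, the partner of PSMD14, by -0.32, and PSMD12 by -0.29. The call for PSMD12 (adjusted p = 0.013) did not hold without GFP replicate 1 (adjusted p = 0.060) or without CTNNB1 replicate 2 (adjusted p = 0.0505).

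The assembly chaperones of the base gave log2 fold changes of 0.01 for PSMD5, 0.10 for PSMD9 and -0.05 for PSMD10 (limma adjusted p between 0.27 and 0.94). Their mean TPM in GFP and CTNNB1 were 82.9 ± 2.2 and 83.3 ± 3.4 for PSMD5, 30.7 ± 0.80 and 32.9 ± 2.0 for PSMD9, and 90.1 ± 2.3 and 87.2 ± 3.4 for PSMD10 (SD, n = 3 each).

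Activators and assembly chaperones of the core showed no common direction in CTNNB1. PSME1 and PSME2 encode the activator that interferon induces together with the immunoproteasome. PSME1 was measured at 180.0, 179.7 and 172 TPM in GFP, 209.7, 197 and 192 TPM in CTNNB1, 229, 216 and 243 TPM in shNT1, and 219.9, 223 and 239 TPM in shAPC. Here GFP was the lowest group, with all 3 libraries below the other 9, and limma gave a log2 fold change of 0.17 (SE 0.05, adjusted p = 0.034). The call was lost without any 1 of the GFP libraries, without CTNNB1 replicate 2 (adjusted p between 0.076 and 0.12 over these) and under median-ratio scaling (0.09 on the log2 scale, adjusted p = 0.15). The log2 fold changes of PSME2 (0.06), the nuclear activator PSME3 (-0.03) and the inhibitor PSMF1 (-0.02) were not called.

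PSME4 encodes a large single-chain activator that caps the core mainly in the nucleus. It stood at 96.9, 94.7 and 95.96 TPM in GFP, 88.96, 77.7 and 76.2 TPM in CTNNB1, 66.8, 66.7 and 74.6 TPM in shNT1, and 64.6, 61.9 and 60.5 TPM in shAPC. GFP lay above all other libraries, and limma gave a log2 fold change of -0.24 (SE 0.06, adjusted p = 0.020). The call for PSME4 was lost without any 1 of the GFP libraries or without CTNNB1 replicate 2 (adjusted p between 0.063 and 0.073). PSMG1, which pairs with PSMG2 to assemble the alpha ring, was found at 180.2, 175 and 165 TPM in GFP, 197, 201 and 202 TPM in CTNNB1, 159.7, 156 and 148 TPM in shNT1, and 173, 184 and 177 TPM in shAPC. The CTNNB1 libraries lay above the GFP libraries, and limma gave a log2 fold change of 0.20 (SE 0.05, adjusted p = 0.013). That rise was not called without GFP replicate 2 (adjusted p = 0.051), without GFP replicate 3 (adjusted p = 0.059) or under median-ratio scaling (0.13 on the log2 scale, adjusted p = 0.12). PSMG2, PSMG3 and PSMG4 had values of 0.04, -0.04 and -0.13 on the log2 scale, none of them called.

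**Figure D4:**
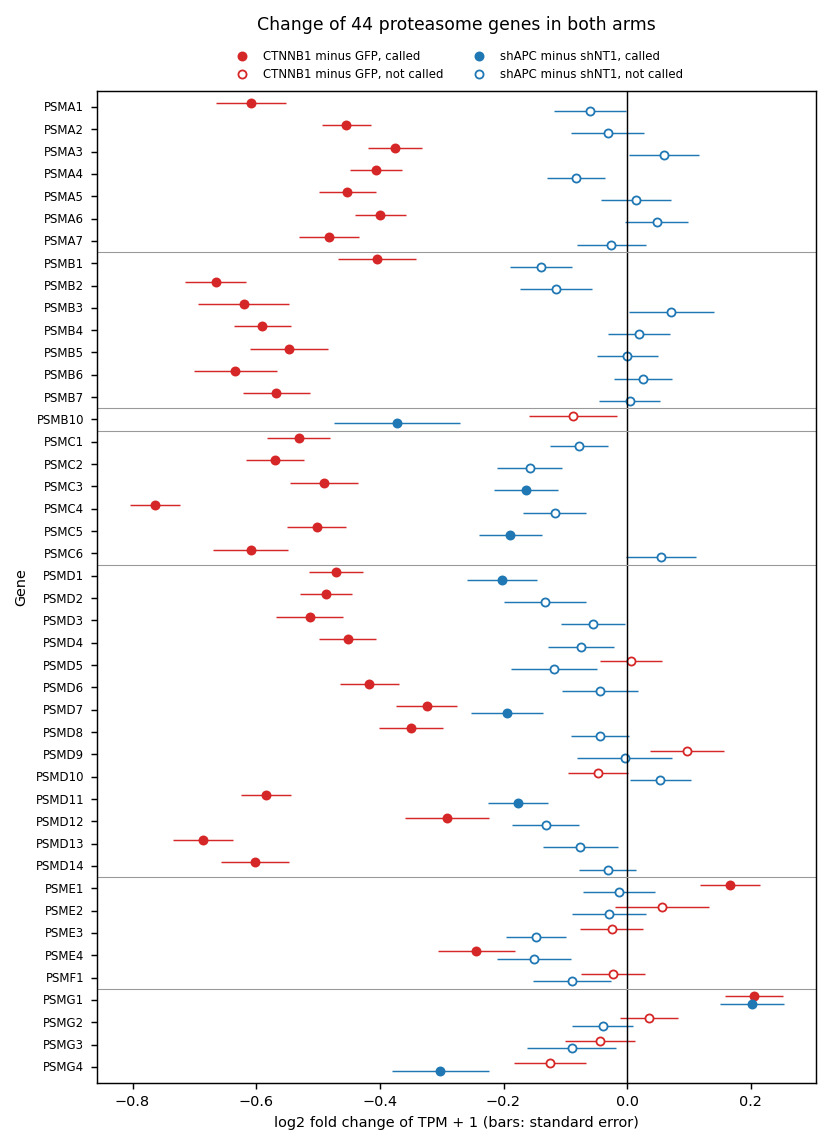
Log2 fold change of TPM + 1 (horizontal axis, bars show the standard error) of the 44 tested genes (vertical axis) for CTNNB1 minus GFP (red) and shAPC minus shNT1 (blue); filled points were called at an adjusted p under 0.05. All 31 constitutive subunits have filled red points between -0.76 and -0.29, and the blue points of these genes lie between -0.20 and 0.07.

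Proteasome genes are known to be induced together through the antioxidant response element, a promoter motif bound by the transcription factor NFE2L1, when proteasome activity falls short. The promoters were therefore searched for its core, TGACNNNGC, on both strands in the 250 bases upstream of the gene start (RefSeq, GRCh38.p14; 42 of the 48 genes had an entry). The core was present in 13 of the 42 genes (31.0%) and in 10.9% of 35116 promoter entries of the same length. A gene was counted if any of its entries held the core, so the 2 shares have unlike units. It was present in 6 of the 27 genes called lower in CTNNB1 that had an entry and in 6 of the 11 other tested genes that had one, and PSMB9, which was not tested, held it as well. Windows around the core are shown for 4 genes that fell (PSMA4, PSMB3, PSMD3, PSMC5) and 2 that did not (PSMD5, PSMG1), 5′ to 3′ on the strand of the gene, with the core in capitals; in PSMC5 the capitals are its reverse complement. They lie at chr15:78540630-78540698 (PSMA4, plus strand), chr17:38752607-38752675 (PSMB3, plus strand), chr17:39980740-39980806 (PSMD3, plus strand), chr17:63827634-63827702 (PSMC5, plus strand), chr9:120843018-120843086 (PSMD5, minus strand) and chr21:39183596-39183664 (PSMG1, minus strand).
PSMA4: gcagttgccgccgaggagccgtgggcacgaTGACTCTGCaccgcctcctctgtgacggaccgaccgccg
PSMB3: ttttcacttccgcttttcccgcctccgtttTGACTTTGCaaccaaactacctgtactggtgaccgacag
PSMD3: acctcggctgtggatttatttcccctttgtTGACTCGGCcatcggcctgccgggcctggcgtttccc
PSMC5: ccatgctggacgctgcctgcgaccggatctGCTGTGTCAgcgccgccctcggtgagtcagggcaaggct
PSMD5: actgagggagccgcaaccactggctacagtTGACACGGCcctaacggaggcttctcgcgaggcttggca
PSMG1: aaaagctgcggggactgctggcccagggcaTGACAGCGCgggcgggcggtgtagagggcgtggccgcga

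The core starts 126 bases upstream of the gene start in PSMA4, 104 in PSMB3, 37 in PSMD3, 57 in PSMC5, 134 in PSMD5 and 183 in PSMG1. Other motifs were searched on both strands in the same windows and counted in the same way. CCAAT was in 19 of 42 proteasome genes (32.0% of all entries). TTCNNNGAA of interferon-gamma activated sites was in 7 of 42 (6.57% of all) and the interferon-stimulated element core in 5 of 42 (3.02% of all). CTTTG of TCF/LEF sites was in 23 of 42 (42.1% of all) and TATAAA in 5 of 42 (10.7% of all). The interferon-stimulated element core was present in PSMA4, PSMB4, PSMB10, PSME2 and PSMG4. TTCNNNGAA was present in PSMA2, PSMA8, PSMB5, PSMB8, PSMC4, PSMD3 and PSME3. The interferon-inducible genes PSMB9 and PSME1 held neither. CTTTG was present in 14 of the 27 genes called lower and 6 of the 11 others, and CCAAT in 14 and 3. TATAAA was present in 4 of the 27 and 0 of the 11, TTCNNNGAA in 4 and 1, and the interferon-stimulated element core in 2 and 3. These splits were not tested. A match describes the letters in these windows and not the binding of a factor.

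In the shAPC arm few proteasome genes were called, and the share of lower calls was near that of all genes. Of the 44 genes 7 fell and 1 rose by limma over 11834 genes. The 7 are 15.9% of the 44, and 14.9% (1758) of all genes tested were called lower and 7.24% (857) higher, or 1589 and 1264 under median-ratio scaling. Among the 1591 tested genes with a mean of at least 100 TPM, 22.3% were called lower and 7.1% higher. The median log2 fold change was -0.07 over the proteasome genes and -0.04 over all genes. Of the 31 constitutive subunits 22 had a lower mean in shAPC than in shNT1, and so had 60.6% of all genes. Libraries did not overlap for 15 genes in the lower direction and 1 in the higher one, against 26.4% and 14.5% of all genes.

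No alpha subunit and no constitutive beta subunit was called in shAPC, with log2 fold changes between -0.14 (PSMB1) and 0.07 (PSMB3). For the catalytic genes they were 0.03 for PSMB6, 0.00 for PSMB7 and 0.00 for PSMB5, with standard errors of 0.05 each. PSMB10 was the only core gene called (values by library above). All 3 shAPC libraries lay below the 3 shNT1 libraries, of which replicate 3 was highest, and limma gave a log2 fold change of -0.37 (SE 0.10, adjusted p = 0.027). Without any 1 of the shAPC libraries PSMB10 was not called (adjusted p between 0.055 and 0.10).

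The regulatory genes called lower in shAPC were PSMC3, PSMC5, PSMD1, PSMD7 and PSMD11. PSMC5 was measured at 328, 334 and 353 TPM in GFP, 238, 229.6 and 248 TPM in CTNNB1, 231, 236 and 219 TPM in shNT1, and 204, 193 and 205 TPM in shAPC. The shAPC libraries were the 3 lowest of the 12, and limma gave a log2 fold change of -0.19 (SE 0.05, adjusted p = 0.026). PSMC3 was found at 407, 415 and 430.0 TPM in GFP, 289, 281 and 321 TPM in CTNNB1, 279.8, 286 and 262 TPM in shNT1, and 252, 238 and 249 TPM in shAPC. Its shAPC libraries also lay below the others, and limma gave a log2 fold change of -0.16 (SE 0.05, adjusted p = 0.048). PSMD1 stood at 312, 306 and 316 TPM in GFP, 233, 217 and 224 TPM in CTNNB1, 188, 185 and 206 TPM in shNT1, and 173, 168 and 161 TPM in shAPC. Again shAPC was lowest without overlap, and limma gave a log2 fold change of -0.20 (SE 0.06, adjusted p = 0.030). PSMD7 was present at 296, 289 and 296 TPM in GFP, 249.9, 225 and 229.5 TPM in CTNNB1, 233, 219.5 and 249.9 TPM in shNT1, and 212, 198 and 203 TPM in shAPC. The highest shAPC library lay below the lowest shNT1 library, and limma gave a log2 fold change of -0.19 (SE 0.06, adjusted p = 0.039). PSMD11 changed by -0.18. PSMC4, at -0.12, was not called although its shAPC and shNT1 libraries did not overlap.

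Of the assembly chaperones, PSMG1 rose in shAPC, from 154 ± 6.2 to 178 ± 5.3 TPM (SD, n = 3 each), with no overlap, and limma gave a log2 fold change of 0.20 (SE 0.05, adjusted p = 0.021). PSMG4, which pairs with PSMG3, was measured at 31.4, 31.6 and 29.95 TPM in GFP, 26.7, 29.3 and 29.02 TPM in CTNNB1, 31.4, 32.5 and 36.7 TPM in shNT1, and 26.96, 24.9 and 29.2 TPM in shAPC. The shAPC libraries lay below the shNT1 libraries, and limma gave a log2 fold change of -0.30 (SE 0.08, adjusted p = 0.021). PSME1, PSME2, PSME3, PSME4 and PSMF1 had log2 fold changes of -0.01, -0.03, -0.15, -0.15 and -0.09, none of them called.

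The 8 calls depended on the setting and on single libraries, and none of them held under every alternative tried at the same threshold. Without shAPC replicate 2 none of the 44 genes was called lower or higher, and without shAPC replicate 3 only 1 was called lower and none higher. Leaving out shAPC replicate 1, shNT1 replicate 1 and shNT1 replicate 2 gave 3, 2 and 4 lower. With quantile normalization 0 were called lower and 1 higher, with the replicate block 2 lower and 0 higher, and with median-ratio scaling 5 lower and 1 higher.

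The change in the CTNNB1 arm was larger than that in the shAPC arm for most constitutive subunits. In a single fit of the 12 libraries the CTNNB1 effect minus the shAPC effect was called for 29 of the 44 genes, all negative, whereas 2.76% of 11741 genes tested were called negative and 13.3% positive. Among the 1623 tested genes with a mean of at least 100 TPM, 6.47% were called negative and 16.8% positive. The median difference was -0.36 over the 44 genes and 0.11 over all genes. Median-ratio scaling moved the median of all genes to 0.00 and called 32 proteasome genes, again all negative, with 650 negative and 786 positive calls among all genes in place of 324 and 1561. All 7 alpha subunits, all 7 constitutive beta subunits, all 6 ATPases and 9 of the 14 non-ATPase genes were called. The constitutive subunits not called were PSMD7 (-0.13, adjusted p = 0.26) and PSMD12 (-0.16, adjusted p = 0.24), and none of the 9 activator or assembly genes was called. The 4 with the largest difference were PSMB3 (-0.69, SE 0.11), PSMC6 (-0.66, SE 0.08), PSMB6 (-0.66, SE 0.08) and PSMC4 (-0.65, SE 0.06), whose adjusted p was between 2.9e-05 and 0.0011. The arms differ in vector, collection day and doxycycline, which cannot be told apart in this difference.

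The following comparisons across arms were added after the levels had been seen. All 31 constitutive subunits had every GFP library above the other 9 libraries, as did PSME4, while this held for 6.64% of all genes. The group means of all 31 ran in the order GFP, CTNNB1, shNT1, which held for 13.4% of all genes. GFP minus shNT1 called 34 of the 44 genes higher and 1 lower (PSME1), against 9.92% (1157) higher and 23.2% (2702) lower among all genes tested, or 2232 and 1745 under median-ratio scaling, which called 36 proteasome genes higher and 1 lower. The median log2 difference of the 31 was 0.63, with a range from 0.33 (PSMD7) to 0.84 (PSMB6). CTNNB1 minus shAPC called 17 genes higher and 1 lower (PSME1), against 16.2% (1915) and 9.05% (1067) of all genes, or 1462 and 1346 with quantile normalization, which called 6 proteasome genes higher and 1 lower, and the median log2 difference of the 31 was 0.17 as deposited and 0.08 with quantile normalization. Among tested genes with a mean of at least 100 TPM, CTNNB1 minus shAPC called 32.7% higher and 9.07% lower, beside 38.6% higher of the 44. GFP minus shNT1 called 23.0% of such genes higher and 12.4% lower, beside 77.3% higher of the 44. GFP is a group of GFP minus shNT1 and the control of the CTNNB1 arm, so the values of these comparisons are not independent. Open reading frame, hairpin, day and doxycycline change together between GFP and shNT1 and cannot be told apart.

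Other genes of the pathway were read from 5 lists chosen with earlier results of these data known. Of the 18 list genes called in CTNNB1, 11 held their call under every alternative tried at the same threshold (HLA-C, KIAA0368, MAFG, NFE2L3, POMP, SEM1, TAPBP, TXNL1, UBQLN1, USP14 and VCP), and of the 17 called in shAPC 3 did (PAAF1, TAPBP and UBE3C). Of 12 proteasome subunits and factors whose symbols do not begin with PSM, 6 fell (50.0%) and 1 rose (8.33%) in CTNNB1, with a median of -0.17, and 4 fell (33.3%) and 1 rose in shAPC, with a median of -0.14. Of all genes tested, 7.16% were called lower and 16.3% higher in CTNNB1 (median 0.06), and 14.9% lower and 7.24% higher in shAPC (median -0.04). The small lid subunit SEM1 went from 89.8 ± 3.9 to 64.1 ± 3.3 TPM (-0.48 on the log2 scale), the ubiquitin receptor ADRM1 from 237 ± 12 to 184 ± 25 TPM (-0.38), and POMP, which matures the core, from 499 ± 28 to 358 ± 16 TPM (-0.48). TXNL1, a redox protein bound to the regulatory particle, changed by -0.48, the deubiquitinase USP14 by -0.28 and KIAA0368 (the older symbol of ECPAS, a proteasome adaptor) by -0.30. PAAF1, a factor that binds the base ATPases, rose by 0.20, a call lost under median-ratio scaling (0.13, adjusted p = 0.11). In shAPC PAAF1 rose by 0.50 (limma adjusted p = 0.0011), and UCHL5, KIAA0368, UBE3C and UBE3A fell by 0.27, 0.23, 0.29 and 0.20 on the log2 scale.

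Of 11 genes of the NFE2L1 axis, 1 rose (9.09%, where 16.3% of all genes did) and 3 fell (27.3%, where 7.16% did) in CTNNB1, with a median of -0.09. NFE2L1, the factor itself, was at 115 ± 3.9 TPM in GFP and 116 ± 1.8 TPM in CTNNB1 (SD, n = 3 each; 0.02 on the log2 scale, limma adjusted p = 0.81). Its transcript level says nothing of the processing that releases the active protein. Its relative NFE2L3 rose by 0.32. VCP, the ATPase that extracts NFE2L1 and other ubiquitinated proteins from membranes, fell from 457 ± 14 to 317 ± 7.4 TPM (-0.52), and MAFG and MAFK, small partners of these factors, fell by 0.32 and 0.24. In shAPC NFE2L2, the protease gene DDI2, MAFK and the ligase gene FBXW7 fell by 0.23, 0.26, 0.27 and 0.26 (4 of 11, 36.4%, where 14.9% of all genes did), and none rose.

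Of 11 antigen processing genes 8 were tested. In the CTNNB1 group, 3 rose (37.5%, where 16.3% of all genes did) and 1 fell (12.5%, where 7.16% did), and in the shAPC group 3 fell (37.5%, where 14.9% did) and none rose. In CTNNB1 TAPBP, ERAP1 and IRF1 rose by 0.32, 0.32 and 0.24 (IRF1 by 0.17 with an adjusted p of 0.051 under median-ratio scaling) while HLA-C fell by 0.35. In shAPC, TAPBP, ERAP2 and HLA-C fell by 0.38, 0.24 and 0.25. TAP1, HLA-B and NLRC5 had means under 1 TPM in every group. Of 10 genes of ubiquitin and its shuttles, the shuttle genes RAD23B and UBQLN1 fell by 0.18 and 0.31 in CTNNB1 (20.0%, where 7.16% of all genes did), and in shAPC the polyubiquitin gene UBB rose by 0.27 while RAD23B and UBQLN1 fell by 0.22 and 0.27 (20.0%, where 14.9% did). Of 5 genes of the ligase that marks beta-catenin, FBXW11 rose by 0.17 in CTNNB1 and fell by 0.22 in shAPC, both calls lost under median-ratio scaling (adjusted p = 0.11 and 0.065), SKP1 rose by 0.18 in shAPC, and BTRC, CUL1 and RBX1 were not called in either arm.

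**Figure D5:**
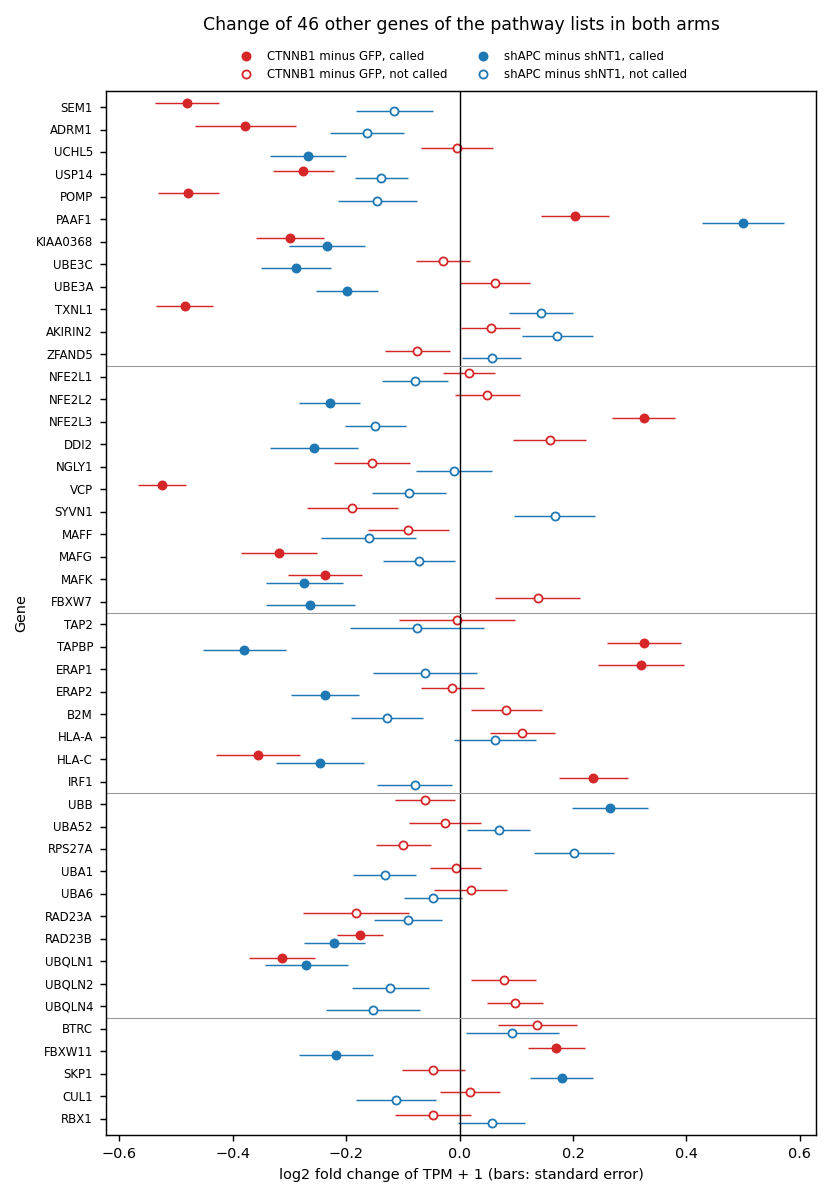
Log2 fold change of TPM + 1 (horizontal axis, bars show the standard error) of the 46 tested genes of the 5 lists (vertical axis, lists parted by lines) for CTNNB1 minus GFP (red) and shAPC minus shNT1 (blue); filled points were called at an adjusted p under 0.05. SEM1, POMP, TXNL1 and VCP have the lowest red points, between -0.52 and -0.48, and PAAF1 has the highest blue point, at 0.50.

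The authors' deposited table for CTNNB1 against GFP, matched by symbol for 44 proteasome genes, held 33 with a negative log2 fold change and an adjusted p under 0.05 and 0 with a positive one, where 4.6% of its 28008 genes were lower and 4.82% higher. The 28008 include genes listed at 0 TPM in all libraries, such as PSMA8. The 44 had a mean of at least 1 TPM, so the shares have unlike bases. The median of the 44 genes in the authors' deposited table was -0.53. For shAPC the authors' deposited table held 3 lower and 0 higher (4.9% and 4.11% of its genes), with a median of -0.03. Of these 3, PSMD1 and PSMD11 were called lower above and PSMC2 was not (-0.12, the authors' limma adjusted p = 0.048). The other genes called in shAPC above had adjusted p-values between 0.068 (PSMD7) and 0.30 (PSMC3) by the authors' limma. PSME1 and PSMG1, called higher above, had log2 fold changes of 0.09 and 0.13 in the authors' deposited table for CTNNB1, with adjusted p-values of 0.14 and 0.21. The base chaperone PSMD10, not called above, was among the lower genes of that table (-0.12, the authors' limma adjusted p = 0.043).

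How reads shared with near-identical copies were assigned is not given in the sources used here. GENCODE v29 lists 32 pseudogenes named after 12 of the genes, and none is a row of the deposited table. Of antisense genes, PSMA3-AS1 was listed at 16.1 to 24.4 TPM and the others at 0.868 TPM or less, and strand use in the counting is not given.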

How the data were processed

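RNA-seq of 12 HT-29 libraries was read from the table of TPM that the authors deposited, and each library's group was taken from its labels. Alignment with STAR 2.7.3a to hg38 and the use of limma are per the submitters' processing notes; the quantifier, annotation and strand setting are not given in the sources used here. The authors' deposited tables of each comparison give log2 fold changes and adjusted p-values and were used for a side-by-side count only. TPM keeps no depth, so no interval or detection limit from counts is given. Genes with a mean of at least 1 TPM over the libraries of a fit were tested on log2(TPM + 1) with limma (3.58.1, under R 4.3.3), with moderated variances and a mean-variance trend, and p-values were adjusted by the Benjamini-Hochberg method over all genes tested (threshold 0.05). Adding 1 understates the changes of low genes. The difference between arms was a contrast in a single fit of 12 libraries. Only the fit of the CTNNB1 arm and that of the difference between arms were run on simulated data, and no result above rests on those runs. The proteasome genes, lists and naming rule were chosen with earlier results of these data known, and 2 genes of the lists are not reported here. Values in every library were given for the 2 called genes with the largest absolute change in each arm and subclass, for PSMB5 to PSMB10, and for the 4 genes with the largest difference between arms; others are given by fold change or range. Replicate numbers are shared across groups, but their meaning is not in the labels, so no replicate block entered the tests. Alternatives tried were median-ratio scaling, no filter, a filter at a mean of 5 TPM, 0.1 as the pseudocount, quantile normalization, no variance trend, a fit of all 4 groups, an adjusted p under 0.01, the replicate block and leaving out each library. Promoter sequences are from RefSeq (GRCh38.p14), and tables and sequence searches were made with Python 3.11.15.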

Additional observations from a re-analysis of the deposited data

Results flagged for a closer look

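The effect of CTNNB1 (against GFP) differed from that of shAPC (against shNT1) for 29 of the 44 tested proteasome genes by the limma contrast of the 2 effects over 12 libraries. All 29 were negative (65.9% of the 44), where the contrast called 2.76% of all genes tested negative and 13.3% positive. Among tested genes with a mean of at least 100 TPM it called 6.47% negative and 16.8% positive. The differences, as log2 values with the shAPC effect subtracted from the CTNNB1 effect, were -0.55 for PSMA1, -0.47 for PSMA5, -0.46 for PSMA7, -0.45 for PSMA6, -0.43 for PSMA3, -0.42 for PSMA2 and -0.32 for PSMA4 among the alpha subunits. They were -0.69 for PSMB3, -0.66 for PSMB6, -0.61 for PSMB4, -0.57 for PSMB7, -0.55 for PSMB2, -0.55 for PSMB5 and -0.26 for PSMB1 among the beta subunits. For the base ATPases they were -0.66 for PSMC6, -0.65 for PSMC4, -0.45 for PSMC1, -0.41 for PSMC2, -0.33 for PSMC3 and -0.31 for PSMC5. For the non-ATPase subunits they were -0.61 for PSMD13, -0.57 for PSMD14, -0.46 for PSMD3, -0.41 for PSMD11, -0.38 for PSMD4, -0.37 for PSMD6, -0.35 for PSMD2, -0.31 for PSMD8 and -0.27 for PSMD1.

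Of the pathway lists, which held 12, 11, 8, 10 and 5 tested genes, 18 genes differed between the arms by the same contrast. The lists were chosen with earlier results of these data known. Of all genes tested, this contrast called 2.76% negative and 13.3% positive. The difference was negative, at -0.30 for PAAF1, -0.33 for POMP, -0.30 for RPS27A, -0.36 for SEM1, -0.36 for SYVN1, -0.63 for TXNL1, -0.33 for UBB and -0.44 for VCP. It was positive, at 0.42 for DDI2, 0.38 for ERAP1, 0.39 for FBXW11, 0.40 for FBXW7, 0.31 for IRF1, 0.28 for NFE2L2, 0.47 for NFE2L3, 0.70 for TAPBP, 0.26 for UBE3A and 0.26 for UBE3C. The vector, collection day and doxycycline of the arms cannot be told apart from the inserts in any of these values.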

How the results depend on the processing

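In the CTNNB1 arm between 30 and 32 proteasome genes were called lower under all alternatives, leave-one-out included. The 2 called higher became 0 at an adjusted p under 0.01 or with median-ratio scaling, 1 with no filter or no variance trend, and 0 to 3 without single libraries. In the shAPC arm the 7 lower became 0 at an adjusted p under 0.01 or with quantile normalization, 3 with no filter, 1 with no variance trend and 9 in a fit of all 4 groups, and 0 to 5 without single libraries; the 1 higher became 0 at an adjusted p under 0.01 or with no variance trend, and 0 to 1 without single libraries. The contrast of the 2 arms called 25 to 32 genes over the alternatives with all libraries and 27 to 30 without single libraries. CTNNB1 minus shAPC called 10 higher at an adjusted p under 0.01, 11 with no variance trend, 6 with quantile normalization and 23 in a fit of all 4 groups, and 10 to 20 without single libraries; its 1 lower became 0 at an adjusted p under 0.01, with no filter or with no variance trend, and 0 to 1 without single libraries. GFP minus shNT1 called 2 lower with no filter, and 33 to 34 higher and 1 to 1 lower without single libraries.

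Under median-ratio scaling the ratio of summed TPM, CTNNB1 to GFP, was 0.674 for core genes (0.709 as deposited), 0.676 for regulatory genes (0.712) and 0.983 for activator or assembly genes (1.03), and the ratio of shAPC to shNT1 was 1.02 for core genes (0.985), 0.958 for regulatory genes (0.930) and 1.01 for activator or assembly genes (0.980), so that the core and the activator or assembly sums crossed 1. Without single libraries the CTNNB1 ratios ranged from 0.700 to 0.720, 0.707 to 0.722 and 1.02 to 1.04, and the shAPC ratios from 0.973 to 1.00, 0.918 to 0.943 and 0.967 to 0.989. The cause of these shifts was not tested.

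With the replicate block 32 genes were called lower and 2 higher in the CTNNB1 arm, 2 lower and 0 higher in the shAPC arm, and 28 in the difference. Same-numbered libraries deviated together by r = 0.21, 0.08 and 0.12 in the CTNNB1 arm and -0.14, 0.00 and -0.21 in the shAPC arm. Differently numbered libraries gave r between -0.19 and 0.08 in the CTNNB1 arm and between -0.13 and 0.21 in the shAPC arm. Whether the numbers pair libraries was not tested, and their meaning is not in the labels, so they were not taken to pair libraries. TPM carries no depth, so counting error could not be separated from the spread between libraries.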
